A study of Drosophila melanogaster with 16 samples.

Results

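The features described here are the 24 of 11196 on a Drosophila array whose log2 ratio was low in RasV12scrib- tumours and not low in 3 other tumour genotypes. They were chosen on the measured values. The mean of the RasV12scrib- arrays had to be -1 or less with all 4 of its arrays below 0, and the mean had to lie above -0.3 in each of the other 3 genotypes. One more feature, FBgn0000071, met these limits and was set aside by the rule. Its means were -2.46 in RasV12scrib-, 0.52 in RafGOFscrib-, 1.38 in RasV12baz- and 1.48 in RasV12cdc42- tumours.

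The tumours arose from mutant cell clones in the eye-antennal imaginal discs, the larval epithelia that form the adult eye and antenna. RasV12scrib-, RasV12baz- and RasV12cdc42- tumours combined activated Ras with the loss of scrib, of baz and of cdc42 in that order. RafGOFscrib- tumours combined gain-of-function Raf with the loss of scrib. Each sample was total RNA of about 30 to 40 dissected discs, taken at day 10 for tumours and at day 5 to 6 for the wild-type discs, all from larvae raised at 25 °C. Age and tumour therefore changed together in every ratio and cannot be told apart, and the driver and cell type of the transgenes are not given in the sources used here. There were 4 two-colour arrays per genotype, each with tumour RNA against wild-type reference RNA, and wild-type RNA had no array of its own.

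Ras is a small GTPase that passes growth signals from receptors to the kinase Raf, and an activated form keeps this signal on. Scribble marks the basolateral side of epithelial cells and acts as a brake on growth in discs. Bazooka and Cdc42 belong to the apical polarity machinery, and loss of any of these genes together with activated Ras is known to give overgrown, invasive disc tissue. The genotypes thus share a growth signal and a polarity defect, and RafGOFscrib- shares its polarity gene with RasV12scrib-.

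Values are log2 ratios of tumour over wild-type with the median of each array subtracted, so 0 is the middle feature of an array and -1 a halving relative to it. Tumour over wild-type is the likely direction, because tumour RNA is channel 1 in the labels, but it is not stated. With the ratios the other way up, lower and higher would swap throughout. The arrays are pools of many cells, so fewer cells of one type and less RNA per cell cannot be told apart. RafGOFscrib- replicates 1 and 2 were identical in 95.1% of features and were averaged into 1 replicate, which left n = 3 there and n = 4 in the other genotypes. Of the 24 features 22 were identical on that pair of arrays, and the largest difference was 0.58. The labels call the arrays biological replicates, and their number limits the precision of every value.

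None of the 24 features carried a gene symbol. Identifiers matched 1 symbol for 71 of the 11196 features in an NCBI gene table, and all 24 are outside that set, so they are given by identifier alone, with no function and no position. No sequence is printed for them. The 33 pathway and marker gene lists matched 9 genes by name, in 8 lists, and none of the 9 was among the 24. Without a symbol the 24 could not match, so whether any of them belongs to a listed pathway was not checked. The eye-field, photoreceptor, haemocyte and muscle marker lists had no matched gene, so the labelled tissue was not checked against its markers here.

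RasV12scrib- tumours had 503 features at a mean of -1 or less with all arrays below 0. Of these, 237 were also at or below -0.3 in all 3 other genotypes, 155 in 2 of them and 86 in 1. The 25 that remained were 4.97% of the 503, and 24 without FBgn0000071. RafGOFscrib- was at or below -0.3 for 394 of the 503, RasV12cdc42- for 391 and RasV12baz- for 322. The same rule, applied to the other genotypes in turn, left 5 features low only in RafGOFscrib-, 5 only in RasV12baz- and 2 only in RasV12cdc42-. These genotypes also had fewer low features to start from, 177 in RafGOFscrib-, 104 in RasV12baz- and 141 in RasV12cdc42-. With the signs turned, 15 features were high only in RasV12scrib-, 19 only in RafGOFscrib-, 11 only in RasV12baz- and 6 only in RasV12cdc42-. RasV12scrib- thus had the highest count in the low direction and not in the high one. The high features to start from numbered 483 in RasV12scrib-, 195 in RafGOFscrib-, 248 in RasV12baz- and 251 in RasV12cdc42-. RafGOFscrib- had only 3 replicates that had to share a sign, so the counts rest on unlike bases. These counts follow from the thresholds and were not tested.

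**Figure D1:**
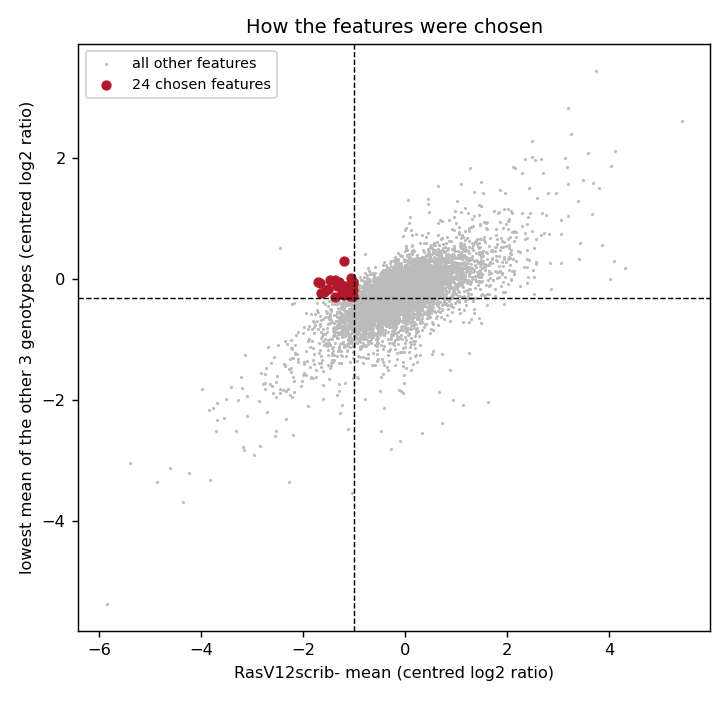
Each point is a feature, with its RasV12scrib- mean on the x axis and the lowest mean of the other 3 genotypes on the y axis, both as centred log2 ratios. Dashed lines mark -1 and -0.3, and the 24 chosen features (red) lie in the upper left corner, close to both lines, while most features with low RasV12scrib- means lie below the horizontal line.

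The 24 features were not among the lowest in RasV12scrib- tumours. Their means ran from -1.71 to -1.02 with a median of -1.19, or 2.29-fold lower than the middle feature, with a range of 2.03-fold to 3.28-fold. The 503 low features had a median of -1.30 and reached -5.84. Just inside the limit of -1 were FBgn0040573 and FBgn0014133, both at -1.02, and FBgn0004133, also at -1.02. Just outside it were FBgn0034204 at -0.97, FBgn0038385 at -0.96 and FBgn0025802 at -0.96. At the limit of -0.3, FBgn0037784 (-0.299 in RafGOFscrib-) was the nearest inside and FBgn0038504 (-0.302 in RafGOFscrib-) the nearest outside.

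On each RasV12scrib- array all 24 features were below 0, as the rule required. Their median was -1.29 on replicate 1, -1.39 on replicate 2, -1.19 on replicate 3 and -1.03 on replicate 4. On the 11 other replicates the median lay between -0.23 (RafGOFscrib- replicates 1 and 2) and 0.24 (RasV12cdc42- replicate 4). No median of another genotype came near those of RasV12scrib-, but single values did. Of the 264 values in the other genotypes 119 were below 0, 10 were at or below -0.8 and 2 at or below -1. The 10 fell in 9 of the 24 features.

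**Figure D2:**
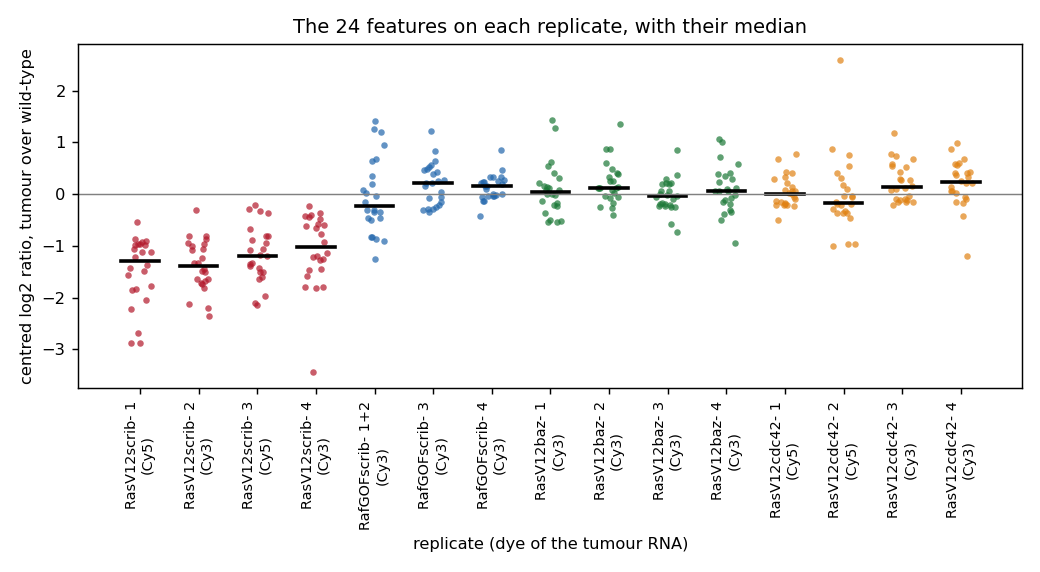
Each point is 1 of the 24 features on 1 replicate, as a centred log2 ratio, and each black bar is their median on that replicate, with the dye of the tumour RNA in brackets. The RasV12scrib- medians lie between -1.39 and -1.03, and those of the other genotypes between -0.23 and 0.24, a distance that largely follows from the rule.

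In 14 of the 24 features every RasV12scrib- array lay below every other replicate, and in 10 the genotypes overlapped. Over all features 1.7% were separated in this way. The rule favours such features, so the 14 describe the choice and support nothing. In the same way limma called all 24 lower in RasV12scrib- against wild-type at an adjusted p under 0.05. Over all features 26.2% were called in either direction and 15.3% were called lower, and this too restates the rule.

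**Figure D3:**
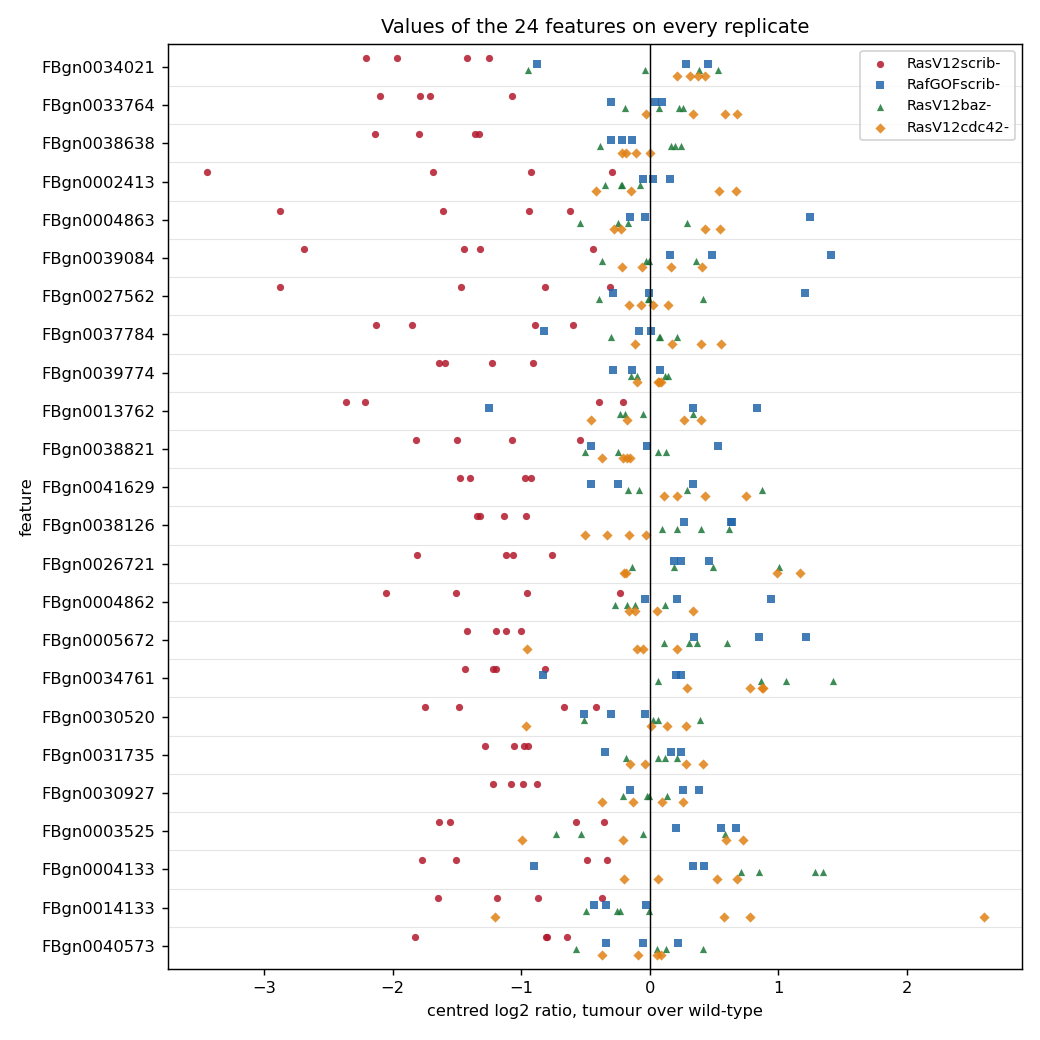
Each row is 1 of the 24 features, ordered by its RasV12scrib- mean, and each symbol is a replicate on a centred log2 scale of tumour over wild-type, red circles for RasV12scrib-, blue squares for RafGOFscrib-, green triangles for RasV12baz- and orange diamonds for RasV12cdc42-. The red circles stand apart on the left in 14 rows and overlap another genotype in 10.

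The features differed in how evenly the RasV12scrib- arrays lay. Replicates 1 and 2 of this genotype resembled each other across all features (r = 0.77), as did replicates 3 and 4 (r = 0.81), while r across these pairs was 0.45 to 0.51. The difference between the mean of replicates 1 and 2 and the mean of replicates 3 and 4 sorts the 24 features into 3 groups, chosen after their values were seen. It was below 0.5 in 9 features, replicates 1 and 2 were lower by at least 0.5 in 10, and replicates 3 and 4 were lower by at least 0.5 in 5. Over all features 55.7% were within 0.5, 28.2% were lower by that much on replicates 1 and 2 and 16.1% on replicates 3 and 4.

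**Figure D4:**
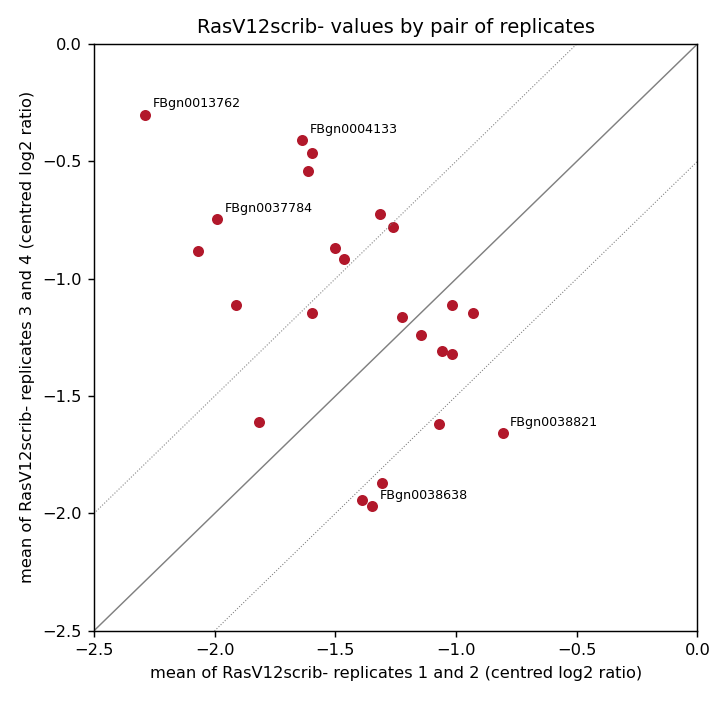
Each point is 1 of the 24 features in RasV12scrib- tumours, with the mean of replicates 1 and 2 on the x axis and that of replicates 3 and 4 on the y axis, both as centred log2 ratios. The solid line is equality, the dotted lines a difference of 0.5, and 10 points lie above the upper dotted line against 5 below the lower one.

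The 9 even features held the most repeatable values. FBgn0031735 was at -0.98, -1.06, -0.94 and -1.28 on RasV12scrib- replicates 1 to 4, a mean of -1.07 ± 0.15 (SD, n = 4), and between -0.35 and 0.41 on the other replicates. FBgn0030927 was at -0.99, -0.88, -1.08 and -1.22, a mean of -1.04 ± 0.14, and between -0.37 and 0.39 elsewhere. These had the narrowest ranges of the 24 in RasV12scrib- (0.34 each), and both were separated from every other replicate.

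FBgn0038126 was at -0.96, -1.32, -1.35 and -1.13 in RasV12scrib- tumours, a mean of -1.19 ± 0.18 (SD, n = 4). FBgn0005672 was at -1.12, -1.0, -1.42 and -1.2, a mean of -1.18 ± 0.18. Both were above 0 on all RafGOFscrib- and all RasV12baz- replicates, which averaged 0.51 in RafGOFscrib- and 0.33 in RasV12baz- for FBgn0038126, and 0.80 in RafGOFscrib- and 0.34 in RasV12baz- for FBgn0005672. In RasV12cdc42- tumours FBgn0038126 averaged -0.26 and was below 0 on all 4 arrays, while FBgn0005672 averaged -0.23 with 1 array at -0.96. FBgn0041629 was at -0.97, -1.48, -1.40 and -0.93 in RasV12scrib-, a mean of -1.19 ± 0.29, and averaged 0.37 in RasV12cdc42-, where all 4 arrays were above 0.

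FBgn0034021 had the lowest mean of the 24. It was at -1.42, -2.21, -1.97 and -1.25 in RasV12scrib- tumours, a mean of -1.71 ± 0.45 (SD, n = 4), or 3.28-fold lower. Its RasV12cdc42- arrays were all above 0 (0.21, 0.31, 0.43 and 0.37), but it was at -0.88 on the merged RafGOFscrib- pair and at -0.95 on RasV12baz- replicate 4, a gap of 0.31 to the nearest RasV12scrib- array. FBgn0034761 was at -1.22, -0.82, -1.2 and -1.44 in RasV12scrib- (mean -1.17 ± 0.26). It was high in RasV12baz- (mean 0.85) and RasV12cdc42- (mean 0.70), above 0 on all 8 arrays, but overlapped RasV12scrib- on the RafGOFscrib- pair, at -0.83.

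The remaining features of the even group were less repeatable. FBgn0027562 was at -2.88, -0.31, -0.82 and -1.47 in RasV12scrib- tumours (mean -1.37 ± 1.11), and each pair of replicates held a high and a low array. FBgn0014133 was at -0.87, -1.65, -1.19 and -0.38 in RasV12scrib- (mean -1.02 ± 0.54). Its RasV12cdc42- arrays were the most scattered values of all 24 features, at 0.78, 2.60, 0.58 and -1.2, and the lowest of them lay within the RasV12scrib- range.

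In the 10 features that were lower on replicates 1 and 2, the larger part of the RasV12scrib- mean came from that pair. FBgn0013762 was at -2.21 and -2.36 on replicates 1 and 2 but at -0.21 and -0.40 on replicates 3 and 4, and its mean was -1.29 ± 1.15 (SD, n = 4). It stood at -1.25 on the RafGOFscrib- pair, below 2 of the RasV12scrib- arrays, and at 0.83 and 0.33 on RafGOFscrib- replicates 3 and 4. In RasV12cdc42- it was at -0.18, -0.46, 0.27 and 0.40 on replicates 1 to 4. Tumour RNA there was in Cy5 on replicates 1 and 2 and in Cy3 on 3 and 4. In RasV12cdc42- the split and the dye thus cannot be told apart. FBgn0004863, FBgn0039084 and FBgn0004862, also among the 10, were instead higher on the RafGOFscrib- pair than on its replicates 3 and 4. FBgn0004133 was at -1.77, -1.51, -0.34 and -0.49 in RasV12scrib- (mean -1.02 ± 0.72) and at -0.90 on the RafGOFscrib- pair. Both features overlapped other genotypes.

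FBgn0037784 was at -1.85, -2.13, -0.89 and -0.60 in RasV12scrib- tumours (mean -1.37 ± 0.74). FBgn0003525 was at -1.56, -1.64, -0.36 and -0.57 (mean -1.03 ± 0.66), and FBgn0030520 at -1.48, -1.75, -0.67 and -0.42 (mean -1.08 ± 0.64). These 3 overlapped other genotypes, with FBgn0003525 at -1.0 and FBgn0030520 at -0.96 on RasV12cdc42- replicate 2, and FBgn0037784 at -0.82 on the RafGOFscrib- pair. FBgn0026721 did not overlap, at -1.12, -1.81, -1.07 and -0.76 (mean -1.19 ± 0.44) with no other replicate below -0.20. On RasV12cdc42- replicates 1 to 4 it was at -0.20, -0.19, 1.17 and 0.99, and FBgn0003525 at -0.21, -1.0, 0.73 and 0.60. Both were again lower on replicates 1 and 2, the Cy5 arrays of RasV12cdc42-. FBgn0037784 did not split in this way there (0.40, 0.17, -0.11 and 0.55).

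In 4 others of these 10 features, replicate 1 was the lowest array, as it was in FBgn0004133. FBgn0004863 was at -2.88, -0.94, -1.61 and -0.62 in RasV12scrib- tumours (mean -1.51 ± 1.0, SD, n = 4). Its value on replicate 1 was the same as that of FBgn0027562 there (-2.8809), and the reason for this tie was not tested. FBgn0039084 was at -2.69, -1.45, -1.32 and -0.44 (mean -1.47 ± 0.93), and FBgn0004862 at -2.05, -0.96, -1.51 and -0.23 (mean -1.19 ± 0.78). On the RafGOFscrib- pair, the same 3 features and FBgn0027562 were at 1.25, 1.41, 0.94 and 1.20, their highest value on any of the 11 other replicates. FBgn0040573 was at -1.83, -0.80, -0.80 and -0.65 in RasV12scrib- (mean -1.02 ± 0.54) and stayed between -0.57 and 0.41 elsewhere.

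The 5 features that were lower on replicates 3 and 4 included the next lowest means after that of FBgn0034021. FBgn0033764 was at -1.07, -1.71, -2.10 and -1.79 in RasV12scrib- tumours (mean -1.67 ± 0.43), and FBgn0038638 at -1.36, -1.33, -2.14 and -1.80 (mean -1.66 ± 0.39). FBgn0039774 was at -0.91, -1.23, -1.64 and -1.59 (mean -1.34 ± 0.34) and stayed between -0.29 and 0.15 on all other replicates, the tightest of the 24 there. These 3 were separated from every other replicate. FBgn0038821 was at -0.54, -1.07, -1.50 and -1.82 (mean -1.23 ± 0.55) and was separated from its nearest other value of -0.50 by little. FBgn0002413 was at -0.92, -1.69, -0.30 and -3.45 (mean -1.59 ± 1.36), the widest range of the 24 (3.15), and overlapped RasV12baz- and RasV12cdc42-.

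Tumour RNA was in Cy5 on RasV12scrib- replicates 1 and 3 and in Cy3 on replicates 2 and 4. The means of these dye pairs were within 0.5 of each other in 18 of the 24 features, against 85.3% of all features. FBgn0004863 (-1.46), FBgn0004862 (-1.18), FBgn0039084 (-1.06), FBgn0027562 (-0.96) and FBgn0040573 (-0.59) were lower in Cy5 by more than that, given as Cy5 minus Cy3, and FBgn0002413 (1.96) was higher in Cy5. The dye term of the limma fit, which the rule did not use, passed the threshold in 0 of the 24 and in 0% of all features (lowest adjusted p = 0.284). Without adjustment 3 of the 24 had a dye p under 0.05, against 13.3% of all features.

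In the other genotypes the 24 features centred on 0. Their median was -0.0050 in RafGOFscrib-, 0.00024 in RasV12baz- and 0.05 in RasV12cdc42- tumours, and the median of all features was -0.0038, 0.0013 and 0.02 in the same genotypes. Means of at least 0.3 were seen for 7 features in RafGOFscrib-, 5 in RasV12baz- and 6 in RasV12cdc42-, and over all features for 16.2%, 13.6% and 13.3%. In 10 features the mean was within 0.3 of 0 in all 3 genotypes, and in 14 it reached 0.3 in at least 1. The rule removes low values here, so these counts lean upwards by construction. While all RasV12scrib- arrays were below 0, all replicates were above 0 for 5 features in RafGOFscrib- (1.28% of all features), 4 in RasV12baz- (1.14%) and 3 in RasV12cdc42- (0.857%), which made 9 features in at least 1 of these genotypes (2.74%). The rule fixed the first sign and favours the second, so nothing is read from these shares.

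The highest means outside RasV12scrib- were those of FBgn0004133 and FBgn0034761 in RasV12baz-. FBgn0004133 was at 1.28, 1.35, 0.85 and 0.71 there (mean 1.05 ± 0.32, SD, n = 4), at 0.07, -0.20, 0.53 and 0.68 in RasV12cdc42-, and in RafGOFscrib- at -0.90 on the merged pair and at 0.42 and 0.33 on replicates 3 and 4 (mean -0.05). FBgn0034761 was at 1.43, 0.86, 0.06 and 1.06 in RasV12baz-, and at 0.29, 0.87, 0.78 and 0.88 in RasV12cdc42-. Against wild-type limma called 0 of the 24 in RafGOFscrib- (4.14% of all features called), 0 in RasV12baz- (4.66%) and 0 in RasV12cdc42- (8.9%). In the same order, 3, 3 and 2 of the 24 had an unadjusted p under 0.05. Over all 11196 features, 1785, 1988 and 2276 did. The rule kept the plain means above -0.3, so the counts of 0 in part restate the choice. It did not bound the fitted values in this way. Tumour RNA was in Cy3 on every RafGOFscrib- and RasV12baz- array, so the dye term shifted these fits. The shift was large in FBgn0004863, with a RasV12baz- mean of -0.17 but a fitted value of -0.717 ± 0.285 (SE). FBgn0002413 had a RafGOFscrib- mean of 0.04 but a fitted value of 0.752 ± 0.301. The random-block fit, with replicates 1-2 and 3-4 of each genotype as blocks, also called 0 of the 24 in each. Over all features it called 2.09% in RafGOFscrib-, 1.86% in RasV12baz- and 2.81% in RasV12cdc42-.

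The 24 features were also compared among the other 3 genotypes. The rule set no limit on the differences between these genotypes, but it removed features with a mean of -0.3 or less in any of them, which narrows the differences that can be seen. The counts are therefore a description of the chosen features. Between RasV12cdc42- and RasV12baz- limma called 0 of the 24 (0.0357% of all features). An unadjusted p under 0.05 was seen for 2 of the 24 and for 803 of all 11196 features. Between RasV12baz- and RafGOFscrib- it called 0 (0.84% of all features), with unadjusted counts of 2 of the 24 and 1141 of all features. Between RasV12cdc42- and RafGOFscrib- it called 0 (0.715%), with unadjusted counts of 3 of the 24 and 876 of all. An F-test over the 3 genotypes called 0 (0.991% of all features), with unadjusted counts of 4 of the 24 and 1122 of all. The random-block fit also called 0 of the 24 in each of these tests. Over all features it called 0%, 0.196%, 0.161% and 0.152% in the same order. The fit shares 1 estimate of the spread over 15 replicates, with a dye term. That term was estimated from RasV12scrib- and RasV12cdc42- arrays alone, the genotypes with both dyes, and it shifts the contrasts that involve RasV12cdc42-. In RasV12cdc42- the dyes divide replicates 1 and 2 from 3 and 4. A difference between these replicates for another reason would therefore enter the dye term and the values it shifts.

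The nearest to the threshold were FBgn0038126 and FBgn0034761. FBgn0038126 was lower in RasV12cdc42- than in RafGOFscrib- by a log2 difference of -0.71 ± 0.21 (SE, limma adjusted p = 0.220) and lower than in RasV12baz- by -0.53 ± 0.20 (adjusted p = 0.634). FBgn0034761 was higher in RasV12baz- than in RafGOFscrib- by 0.98 ± 0.32 (adjusted p = 0.222), and FBgn0004133 by 1.10 ± 0.38 (adjusted p = 0.256). FBgn0005672 was lower in RasV12cdc42- than in RafGOFscrib- by -0.85 ± 0.28 (adjusted p = 0.292). The errors leave room for differences of this size, and no p here shows that the 3 genotypes had equal levels.

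**Figure D5:**
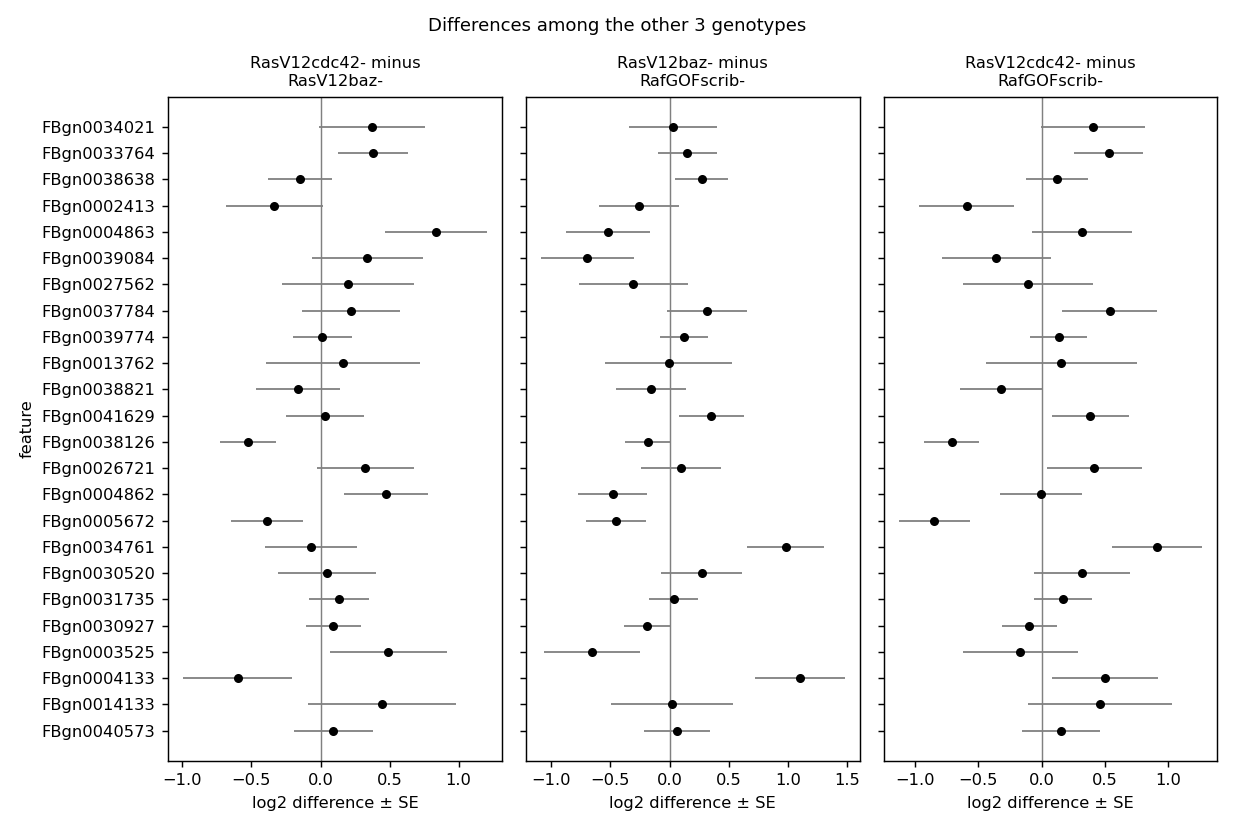
Points are fitted log2 differences between the genotypes named above each panel for the 24 features, with bars of 1 SE from the limma fit. No difference passed an adjusted p under 0.05, and the largest sizes were those of FBgn0004133 (1.10) and FBgn0034761 (0.98) in RasV12baz- minus RafGOFscrib-.

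Among the 71 features with a symbol, 3 were in the set of 503 low in RasV12scrib-, and each was kept out of the 24 by another genotype. Lsp2, a larval serum protein of the fat body and the only matched fat body marker, averaged -3.98 in RasV12scrib-, -1.15 in RafGOFscrib-, -0.26 in RasV12baz- and -1.81 in RasV12cdc42- tumours. Eig71Ee, an ecdysone-induced gene, averaged -2.24 in RasV12scrib-, -0.97 in RafGOFscrib-, -1.01 in RasV12baz- and -0.18 in RasV12cdc42-. Ebp, an ejaculatory bulb protein gene, averaged -1.26 in RasV12scrib-, -0.69 in RafGOFscrib-, -0.24 in RasV12baz- and 0.18 in RasV12cdc42-.

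Of the matched testis markers, Mst98Ca came closest to the pattern of the 24 without reaching -1. It was at -1.36, -0.06, -0.83 and -1.15 in RasV12scrib- tumours (mean -0.85), and averaged -0.12 in RafGOFscrib-, -0.03 in RasV12baz- and -0.08 in RasV12cdc42-. The other matched testis marker, betaTub85D, averaged -0.66 in RasV12scrib-, and it was also low in RasV12baz- (-0.50) and RasV12cdc42- (-0.72). Lsp2, Eig71Ee, Ebp and Mst98Ca were picked for this paragraph after their values were seen, and their part in the values of the 24 was not tested.

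Which features meet the rule depended on the arrays and their scaling. Without centring 71 features met it, 18 of them among the 24, and after quantile normalization 9 did, 5 of them among the 24. With RasV12scrib- replicates 1 and 2 alone 159 features met it, 22 of them among the 24, and with replicates 3 and 4 alone 43 did, 14 of them among the 24. Without RasV12scrib- replicate 3 the number was 37 and without replicate 4 it was 47.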

How the data were processed

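Values were the log2 ratios deposited by the authors for 11196 features on 16 arrays, with no missing value. For scanning, background correction, normalization and build, the methods are not given in the sources used here. Base 2 was inferred from 409 nonzero values that occurred 3 or more times on the same array. Of these, 36.7% lay within 1e-05 of the log2 of a fraction of whole numbers no larger than 9, against 0% for natural or decimal logarithms. Deposited array medians ran from -0.12 to 0.48. Each was subtracted, since the rule for the 24 features uses that scale. Dye-swapped arrays (4) were already turned the same way, as the lowest correlation between any pair of arrays was 0.067.

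The fit was limma 3.58.1 (R 4.3.3) on 15 replicates, with genotype means plus a term for dye, Benjamini-Hochberg over all features at 0.05, two-sided. Figures used Python 3.11.15 with matplotlib 3.10.9. On data simulated for RasV12cdc42- minus RasV12baz- with 11196 features and 200 changed, it recovered 45% of changes of 1 and 92% of changes of 2, with 9 false calls. Simulated errors were independent between arrays, while the random-block fit put the correlation within replicates 1-2 and 3-4 of a genotype at 0.503. That fit called 0% of all features in the same contrast. The recovery above and the SEs of the main fit may therefore be too favourable.

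The features and lists were chosen with earlier results of these data known. Symbols came from the synonyms of an NCBI table of the Release 6 assembly. Features were named by the lists, by rank, by nearness to a threshold or by their RasV12scrib- values, and unnamed ones by identifier.

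Alternatives were no centring, quantile normalization, medians, other thresholds, no dye term and the replicate number as a block. Others were the RafGOFscrib- pair kept separate, Cy3 arrays alone and each replicate left out. Replicates 1-2 and 3-4 as random blocks or alone were added after the data were seen. So was leaving out the RafGOFscrib- pair and RasV12baz- replicate 4 together. Without RasV12baz- replicate 4 alone, the RasV12cdc42- minus RasV12baz- fit called 73 of all features, against 4 in the main fit.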

Additional observations from a re-analysis of the deposited data

Results flagged for a closer look

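In 75 sets of 4 arrays (each of the 24 features and their median, in RasV12scrib-, RasV12baz- and RasV12cdc42-), 1 array stood apart from the other 3 by more than Dixon's 95% limit in 3 sets, where chance gives about 5% of sets. FBgn0040573 was at -1.83 on RasV12scrib- replicate 1. FBgn0038638 was at -0.38 on RasV12baz- replicate 4. FBgn0039774 was at -0.10 on RasV12cdc42- replicate 1.

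In 9 features every RasV12scrib- array was below 0 and every replicate of another genotype above 0. Over all features 2.74% had such a pattern. The rule required the first of these signs and favours the second, and the difference was not tested. The means above 0 in RafGOFscrib- were 0.47 for FBgn0003525, 0.80 for FBgn0005672, 0.30 for FBgn0026721, 0.51 for FBgn0038126 and 0.68 for FBgn0039084. In RasV12baz- they were 1.05 for FBgn0004133, 0.34 for FBgn0005672, 0.85 for FBgn0034761 and 0.33 for FBgn0038126. In RasV12cdc42- they were 0.33 for FBgn0034021, 0.70 for FBgn0034761 and 0.37 for FBgn0041629.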

How the results depend on the processing

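The number of features that met the rule was 71 without centring, 9 with quantile normalization, 67 on Cy3 arrays alone, 159 with RasV12scrib- replicates 1 and 2 only and 43 with replicates 3 and 4 only. It was 64 and 11 with a RasV12scrib- limit of -0.8 and -1.2, and 16 and 50 with a limit of -0.2 and -0.4 in the others. Leaving out 1 replicate gave 22 to 47. Without the RafGOFscrib- pair and RasV12baz- replicate 4 it was 31, of which 21 were among the 24. Quantile normalization left 9 of the 24 features separated from all other replicates, in place of 14. Centring removed genotype medians of 0.05 in RasV12scrib-, 0.29 in RafGOFscrib-, 0.21 in RasV12baz- and 0.14 in RasV12cdc42-, and the median after quantile normalization was 0.16. The causes of these changes were not tested.

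The RasV12scrib- means of the 24 ran from -2.57 to -0.52 in 192 recomputed values, and 11 moved by at least 1 SD, all with quantile normalization. The rule fixed the sign of 144 of them. The other 48, without centring or with quantile normalization, also stayed below 0 (-1.66 to -0.52). For calls against wild-type, the share of all features called under the same setting is in brackets. In RasV12scrib-, 20 to 24 of the 24 were called when 1 replicate was left out (19.6% to 27.5%), 24 with the replicate block (27.5%), 21 with random blocks (14%) and 16 on Cy3 arrays alone (14.1%). In RafGOFscrib- 1 was called without the dye term (5.32%), 1 on Cy3 arrays alone (5.31%) and 2 with quantile normalization (9.63%). In RasV12baz- 2 were called without the dye term (7.63%), 2 on Cy3 arrays alone (7.57%), 3 with quantile normalization (13.5%) and 0 to 1 with 1 replicate left out (2.38% to 6.47%). In RasV12cdc42- 1 was called without the dye term (8.54%), 1 without centring (8.14%) and 3 with quantile normalization (15.7%). The number there was 1 without the RafGOFscrib- pair and RasV12baz- replicate 4 (11.8%), and 0 to 1 with 1 replicate left out (4.3% to 11.1%).

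The 4 tests among the other genotypes called 0 of the 24 under every alternative run, the replicate block included (0 each). Over all features they called between 0% and 3.9% under these alternatives. Deviations of same-numbered replicates correlated above 0.1 in all 4 pairs of RasV12scrib- with RasV12cdc42- and all 3 of RasV12scrib- with RafGOFscrib-, which no test here compares. In the genotypes that were compared they did so in 2 of 4 pairs (RasV12cdc42- with RasV12baz-), 0 of 3 (RasV12baz- with RafGOFscrib-) and 2 of 3 (RasV12cdc42- with RafGOFscrib-), so the number was not taken to pair the samples there. Over all genotypes it was 12 of 21 pairs (range -0.35 to 0.36), and 7 of 15 replicates correlated best with their own number. A split of replicates 1 and 2 against 3 and 4 was shared between some genotypes. In RasV12cdc42- it was also the split between Cy5 (replicates 1 and 2) and Cy3 (replicates 3 and 4). With RasV12cdc42- replicates 1 to 4, the RafGOFscrib- pair correlated at 0.22, 0.24, -0.19 and -0.29. RafGOFscrib- replicate 3 was at -0.27, -0.34, 0.29 and 0.36, and replicate 4 between -0.03 and 0.04. RasV12scrib- replicate 1 was at 0.26, 0.35, -0.28 and -0.38. Of the fits, only that with the replicate number as a block held a term for this split common to the genotypes. The cause of the split was not tested.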
